A study of Danio rerio with 6 samples.

Results

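Neutrophil granule and receptor genes were examined in RNA of macrophages sorted from zebrafish larvae, where their level is a measure of neutrophil-type transcripts in the sort. The set was a list of 7 zebrafish symbols (mpx, lyz, npsn, lect2l, cpa5, csf3r and srgn) looked up in a table that pairs Ensembl gene IDs with symbols. Of these 7, 5 were matched, by 6 IDs among the 31962 in the count files. lyz, npsn and srgn were matched exactly, csf3r was matched by CSF3R, and lect2l was matched by 2 IDs that both carry the name LECT2 (ENSDARG00000033227 and ENSDARG00000090889), so that which of these is lect2l is not given by the table. No ID carried the symbol mpx or cpa5, and neither gene is analysed here under its own name. All 6 IDs had enough counts to be tested, among 16499 tested genes.

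The libraries came from 2 genotypes, homozygous mutant for the chemokine receptor gene cxcr3.2 (cxcr3.2-/-, 3 libraries) and wild type (cxcr3.2+/+, 3 libraries). Both genotypes carried the mpeg1:mCherryF transgene, a membrane-targeted red reporter under the promoter of the macrophage gene mpeg1, and no treatment is named for either. Each library was made from its own pool of 150 to 200 dissociated larvae, from which red cells were sorted, and the age is 6 days after fertilisation in one label and 5 days in another. The labels do not say whether the pools came from separate crosses or days, so p-values measure the spread between these pools. The comparison asks whether transcripts of sorted larval macrophages differ when cxcr3.2 is mutated. Fold changes are mutant over wild type, levels are CPM, counts normalised to library size with scaling by the trimmed mean of M-values (TMM), and a gene was called at an adjusted p under 0.05 in edgeR's quasi-likelihood test.

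Neutrophils carry ready-made granules that hold peroxidase, lysozyme, proteases and the proteoglycan that packs them, and they are produced and mobilised through the receptor for granulocyte colony-stimulating factor. In larval zebrafish, mpx and lyz are the usual markers of neutrophils, as mpeg1 is of macrophages, although lyz transcripts have also been described in early zebrafish macrophages. Serglycin and the colony-stimulating factor receptor are not limited to neutrophils: other blood cells also make serglycin, and in zebrafish the receptor acts in early development of both neutrophils and macrophages.

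Total counts were between 6239470 and 9607009 per library. Some libraries stood apart in markers of other tissues, and for some lists the genotypes did. Epidermal and epithelial markers (18 IDs) summed to 4544 to 4803 CPM in the mutant, against 5459 to 6132 CPM in the wild type. Pan-leukocyte genes (13 IDs) summed to 5333 to 6452 CPM in the mutant, against 4344 to 5108 CPM in the wild type. The sums of lymphoid, erythroid, thrombocyte, endothelial and neural markers overlapped between genotypes. Skeletal muscle markers (18 IDs) summed to 552, 1963 and 592 CPM in mutant replicates 1, 2 and 3, against 554, 579 and 532 CPM in wild type replicates 1, 2 and 3. The largest of them, ALDOA (ENSDARG00000011665), held 448, 444 and 466 CPM of the mutant sums and 404, 408 and 399 CPM of the wild type sums. It thus made up most of each sum except that of mutant replicate 2, where the remaining muscle markers rose by more than the sum shows. Pancreas, liver and gut markers without CPA1 (16 IDs) summed to 494 to 740 CPM in the mutant libraries, against 1634 CPM in wild type replicate 1 and 547 to 607 CPM in the other wild type libraries. Genes of a heat shock list took 3.21% to 3.48% of counts in mutant libraries, against 9.46% to 18.3% in wild type libraries. Macrophage and microglia markers (25 IDs) summed to 8438 to 8787 CPM in the mutant, against 5530 to 6928 CPM in the wild type, and without apoeb, the largest of them, to 3235 to 3763 CPM and 3271 to 4069 CPM. Within that list edgeR called 1 ID higher, apoeb, and 1 lower, ctss2.2, a cathepsin S gene. The shares over all tested genes were 0.309% and 0.885%. In this list 6 IDs had no overlap with the mutant higher and 5 with it lower, against 10.2% and 10.4% of all tested genes. Named outside the naming rule, MPEG1 ENSDARG00000043093 measured 49.3 ± 19.3 CPM in the mutant and 118 ± 15.9 CPM in the wild type. It was not called (log2 fold change -1.26, adjusted p = 0.0904 in edgeR). MPEG1 ENSDARG00000055290 and ENSDARG00000078569 overlapped between genotypes (adjusted p = 0.752 and 0.796 in edgeR). All 25 macrophage IDs were tested, whereas of 15 lymphoid marker IDs 10 were too low to be tested.

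No neutrophil granule or receptor gene was called in either direction (0 of 6 IDs in edgeR's quasi-likelihood test, 0 of 6 at an unadjusted p under 0.05, and 0 of 6 in DESeq2). Over all tested genes, 0.309% were called higher and 0.885% lower (1.19% in either direction), so that 0 of 6 lies near the background. An unadjusted p under 0.05 was reached by 14.2% of tested genes in edgeR. DESeq2 called 3.53% of the 26817 genes it was run on without the count filter. The genotypes overlapped for all 6 IDs; of all tested genes, 10.2% had no overlap with mutant libraries higher, 10.4% had none with mutant libraries lower, and 20.6% had none in either direction. The median log2 fold change of the 6 IDs was 0.25, against -0.03 over all tested genes, and 5 of the 6 estimates were positive. Over all tested genes, 7905 of 16499 were positive. The signs of the members are not independent. Without mutant replicate 2 the estimate of lyz was -1.05, that of npsn 0.11, of LECT2 ENSDARG00000033227 0.065 and of srgn 0.0083. LECT2 ENSDARG00000090889 was then at 0.035 and CSF3R at -0.17. Summed over the 6 IDs, the genes measured 840, 1609 and 602 CPM in mutant replicates 1, 2 and 3, against 771, 629 and 922 CPM in wild type replicates 1, 2 and 3. Mutant replicate 2 was the highest library and mutant replicate 3 the lowest. The mean sum was 1017 ± 526 CPM in the mutant and 774 ± 147 CPM in the wild type (SD, n = 3 each), a ratio of 1.31. On the log2 scale this ratio was 0.39, and it was -0.10 without mutant replicate 2. Fewer cells of a type and less RNA per cell cannot be told apart in such pooled samples.

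**Figure D1:**
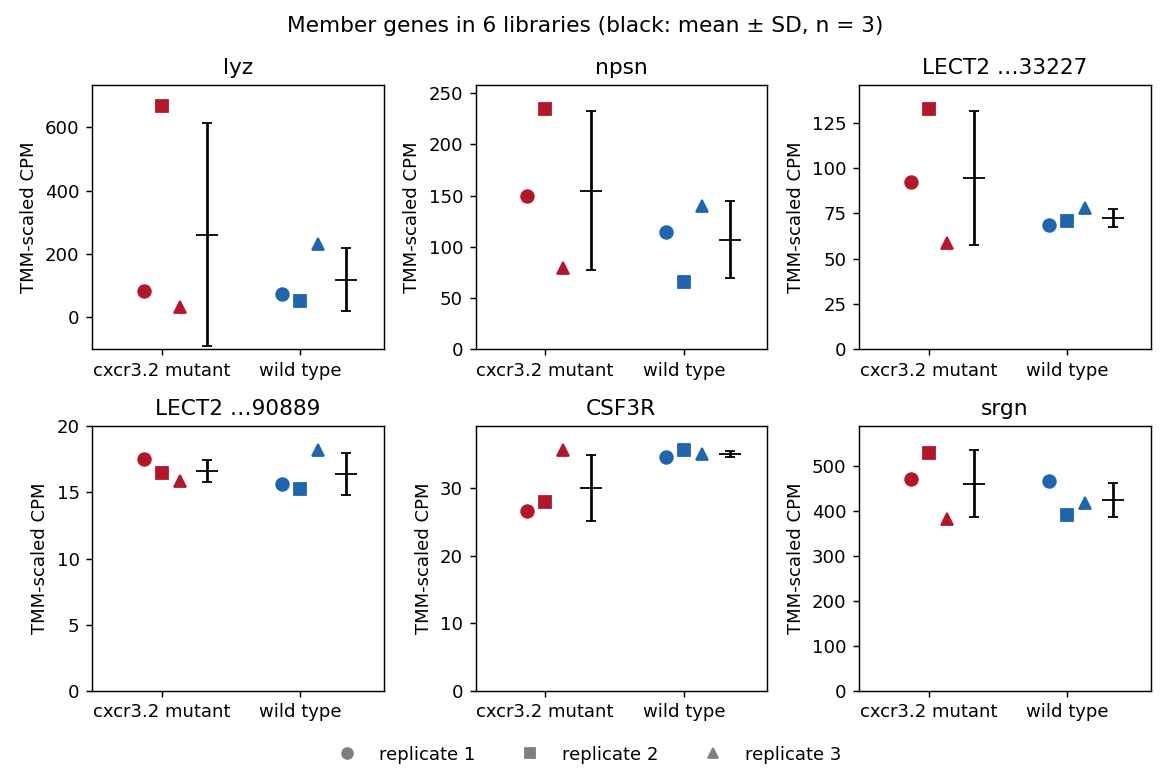
TMM-scaled CPM (vertical axes) of the 6 matched IDs in the 3 cxcr3.2 mutant libraries (red) and 3 wild type libraries (blue), with the mean and SD of each genotype in black; the SD bar of lyz in the mutant passes below 0. Mutant replicate 2 (red square) stands apart for lyz at 668 CPM, and the genotypes overlap in every panel.

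Among granule contents, lyz varied most. Lysozyme, which cleaves the peptidoglycan of bacterial cell walls, had 81.8, 668 and 31.6 CPM of its transcript in mutant replicates 1, 2 and 3, against 71.6, 50.4 and 232 CPM in wild type replicates 1, 2 and 3. The highest and the lowest of the 6 libraries were both mutant, and wild type replicate 3 was second. The highest library exceeded the lowest 21.2-fold among mutants and 4.59-fold among wild types. The raw counts behind these levels were 334 or more in every library. The means were 260 ± 354 CPM in the mutant and 118 ± 99.0 CPM in the wild type (SD, n = 3 each). The estimated log2 fold change of lyz, 1.14 (SE 0.99, 95% interval -1.1 to 3.39), did not pass (edgeR adjusted p = 0.696). A two-sided exact permutation of log2 CPM gave p = 0.8, and with 3 libraries a genotype such a test cannot go below 0.1. The direction rested on mutant replicate 2: without it the estimate was -1.05 (SE 0.68, adjusted p = 0.613 in edgeR), and without wild type replicate 3 it was 2.09 (adjusted p = 0.563). Muscle markers were also highest in mutant replicate 2, but not raised in wild type replicate 3, the second highest library for lyz, and their part in the lyz value was not tested.

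The npsn gene encodes nephrosin, a secreted metalloprotease of the astacin family found in fish leukocytes. It measured 150, 234 and 79.8 CPM in mutant replicates 1, 2 and 3, against 115, 65.9 and 140 CPM in wild type replicates 1, 2 and 3. Mutant replicate 2 was again highest, wild type replicate 2 lowest, and mutant replicate 3 next to lowest. The means were 155 ± 77.4 CPM in the mutant and 107 ± 37.8 CPM in the wild type (SD, n = 3 each). The estimate for npsn on the log2 scale was 0.53 (SE 0.39, 95% interval -0.35 to 1.41, adjusted p = 0.627 in edgeR's quasi-likelihood test; exact two-sided permutation p = 0.4). On the linear scale this interval runs from 0.784-fold to 2.66-fold. Without mutant replicate 2 the estimate of npsn was 0.11.

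Both LECT2 genes belong to the family of leukocyte cell-derived chemotaxin 2, a secreted protein first described as attracting neutrophils. The first, ENSDARG00000033227, measured 92.3, 133 and 58.5 CPM in mutant replicates 1, 2 and 3, against 68.4, 70.6 and 78.0 CPM in wild type replicates 1, 2 and 3. All 3 wild type values lay between the lowest and the second highest mutant value. Its means were 94.5 ± 37.1 CPM in the mutant and 72.3 ± 5.04 CPM in the wild type, with a log2 fold change of 0.38 (SE 0.27, 95% interval -0.24 to 1.0, adjusted p = 0.615 in edgeR's quasi-likelihood test). The second, ENSDARG00000090889, was nearly level across libraries, with 17.5, 16.5 and 15.9 CPM in mutant replicates 1, 2 and 3, against 15.6, 15.3 and 18.2 CPM in wild type replicates 1, 2 and 3. Its highest library exceeded its lowest 1.19-fold, and its estimate on the log2 scale was 0.02 (SE 0.25, 95% interval -0.54 to 0.58, adjusted p = 0.984 in edgeR). The rise of the first LECT2 gene in mutant replicate 2 had no counterpart in the second.

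Serglycin, encoded by srgn, is the proteoglycan whose sulfated chains bind proteases and other cationic proteins inside granules. It measured 472, 529 and 381 CPM in mutant replicates 1, 2 and 3, against 466, 391 and 419 CPM in wild type replicates 1, 2 and 3. The highest and the lowest library were both mutant, as for lyz, but they were only 1.39-fold apart. Its means were 461 ± 74.7 CPM in the mutant and 425 ± 37.9 CPM in the wild type, and its estimate on the log2 scale was 0.11 (SE 0.15, 95% interval -0.23 to 0.46, adjusted p = 0.819 in edgeR's quasi-likelihood test). The interval of srgn allows folds from 0.854 to 1.37.

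The receptor gene CSF3R was the member with a negative estimate. It measured 26.6, 28.0 and 35.6 CPM in mutant replicates 1, 2 and 3, against 34.7, 35.6 and 35.0 CPM in wild type replicates 1, 2 and 3. Mutant replicates 1 and 2 lay below all wild type libraries, and mutant replicate 3 lay at the top of them. The means were 30.1 ± 4.88 CPM in the mutant and 35.1 ± 0.468 CPM in the wild type (SD, n = 3 each), and the log2 fold change was -0.22 (SE 0.21, 95% interval -0.70 to 0.25, adjusted p = 0.726 in edgeR's quasi-likelihood test; exact two-sided permutation p = 0.4). When libraries were scaled by their totals alone, the estimate of CSF3R turned to 0.045, while the median of all tested genes moved up by 0.27. The ligand genes csf3a and csf3b, named beside their receptor outside the naming rule, were not called. csf3a measured 86.8, 83.3 and 70.0 CPM in mutant replicates 1, 2 and 3, against 95.8, 74.9 and 54.9 CPM in wild type replicates 1, 2 and 3. csf3b measured 1637, 1312 and 1102 CPM in mutant replicates 1, 2 and 3, against 1770, 1378 and 1586 CPM in wild type replicates 1, 2 and 3, with an estimate of -0.22 on the log2 scale (SE 0.16, edgeR adjusted p = 0.618).

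**Figure D2:**
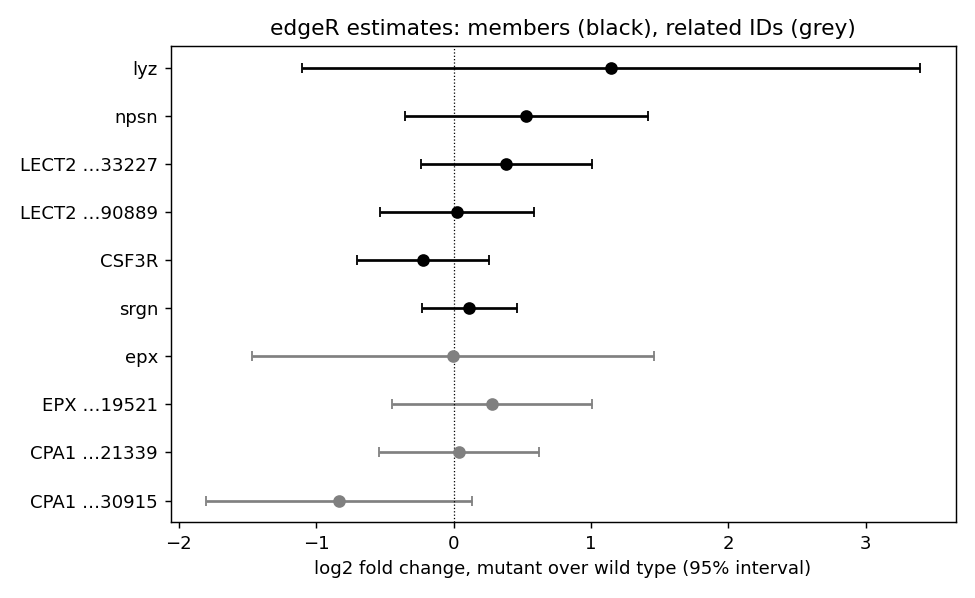
Log2 fold change, mutant over wild type, from edgeR's quasi-likelihood fit with 95% intervals (horizontal axis) for the 6 matched IDs (black) and for 4 IDs named EPX, epx or CPA1 (grey). All 10 intervals include 0, and that of lyz is the widest, from -1.1 to 3.39.

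Related names were examined in place of the unmatched symbols, after the values had been seen. EPX is the name of eosinophil peroxidase in mammals, a haem enzyme of the same family as myeloperoxidase, and in the table it names ENSDARG00000019521, with no statement on whether this is the zebrafish mpx gene. EPX measured 136, 241 and 99.9 CPM in mutant replicates 1, 2 and 3, against 134, 95.7 and 162 CPM in wild type replicates 1, 2 and 3. The estimate for EPX on the log2 scale was 0.28 (SE 0.32, 95% interval -0.44 to 1.01, adjusted p = 0.782 in edgeR's quasi-likelihood test), and -0.14 without mutant replicate 2. Another peroxidase ID, epx (ENSDARG00000012535), was low throughout, at 2.65 ± 1.1 CPM in the mutant and 2.66 ± 1.28 CPM in the wild type. CPA1, a carboxypeptidase A name used for a pancreatic enzyme in mammals, is carried by 2 IDs. CPA1 ENSDARG00000021339 measured 237, 283 and 178 CPM in mutant replicates 1, 2 and 3, against 315, 195 and 168 CPM in wild type replicates 1, 2 and 3. CPA1 ENSDARG00000030915 measured 7.12, 11 and 6.90 CPM in mutant replicates 1, 2 and 3, against 23.5, 11.7 and 9.01 CPM in wild type replicates 1, 2 and 3. Both were highest in wild type replicate 1, the library in which the other pancreas, liver and gut markers were also highest, and the part of pancreatic RNA in these values was not tested. Neither CPA1 ID was called, with adjusted p-values of 0.972 and 0.437 in edgeR's quasi-likelihood test.

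The members differed from one another in which libraries were high. lyz, npsn, the first LECT2 gene, srgn and EPX were all highest in mutant replicate 2. lyz, srgn and the first LECT2 gene were lowest in mutant replicate 3, and npsn and EPX in wild type replicate 2. CSF3R ran the other way, with its highest library in mutant replicate 3 and its 2 lowest in mutant replicates 1 and 2. The second LECT2 gene was highest in wild type replicate 3. These orders are a description of 6 libraries that also differ in depth and in content of other cells. Mutant replicate 2 and wild type replicate 3 had the lowest totals, 6792943 and 6239470 counts, against 8390293 to 9607009 in the others. These were the highest and next highest libraries for lyz and EPX. For npsn, the first LECT2 gene and srgn, mutant replicate 1 was next highest. The part of depth in these orders was not tested.

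**Figure D3:**
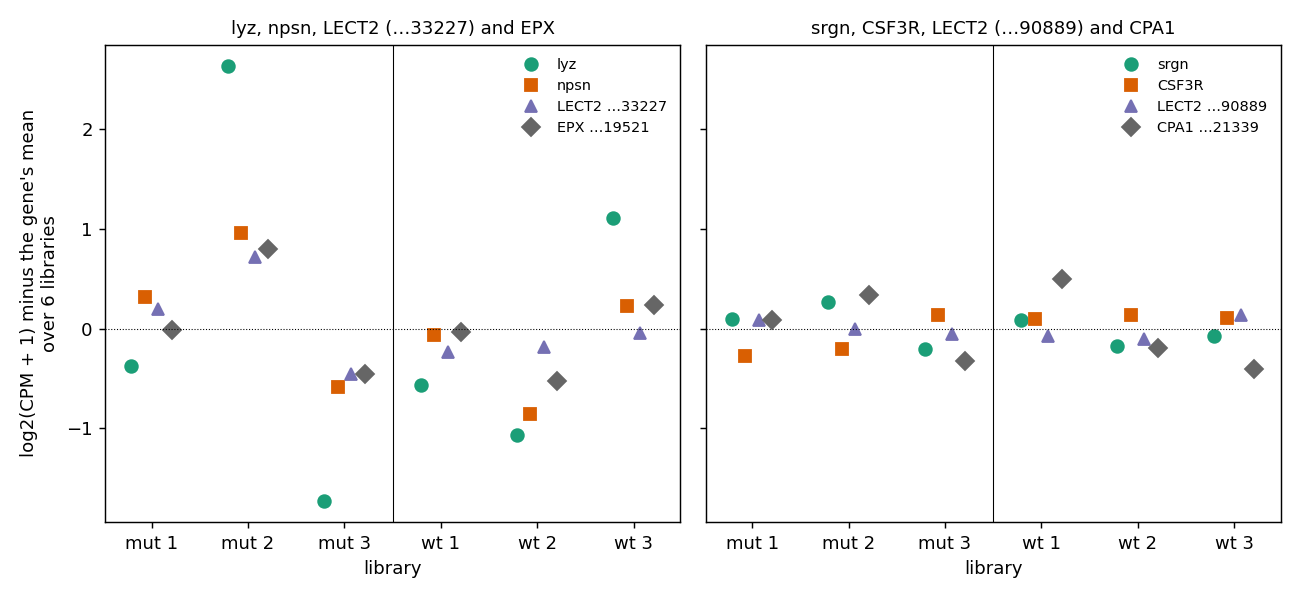
Log2(CPM + 1) of each gene minus its mean over the 6 libraries (vertical axis), for mutant replicates 1 to 3 left of the line and wild type replicates 1 to 3 right of it. On the left, lyz, npsn, LECT2 (ENSDARG00000033227) and EPX all peak in mutant replicate 2, with lyz reaching furthest in both directions. On the right, the largest deviations of srgn, CSF3R, LECT2 (ENSDARG00000090889) and CPA1 (ENSDARG00000021339) are smaller than those on the left. CPA1 reaches 0.497 in wild type replicate 1 and -0.402 in wild type replicate 3, further than npsn, LECT2 (ENSDARG00000033227) and EPX in those libraries.

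Count ratios within a library showed that lyz did not change in the same proportion as npsn, the first LECT2 gene and EPX. The count of npsn over that of EPX was 1.1, 0.973 and 0.798 in mutant replicates 1, 2 and 3, against 0.856, 0.688 and 0.865 in wild type replicates 1, 2 and 3. That ratio spanned 1.6-fold over the libraries, and the ratio of the first LECT2 gene to EPX spanned 1.53-fold. By contrast, the count of lyz over that of EPX was 0.600, 2.77 and 0.316 in mutant replicates 1, 2 and 3, against 0.533, 0.527 and 1.43 in wild type replicates 1, 2 and 3, which is a span of 8.77-fold. lyz over npsn spanned 7.20-fold. The proportions of npsn, EPX and the first LECT2 gene thus varied less between libraries than that of lyz. In library order lyz was close to them: its Spearman correlation over the 6 libraries was 0.943 with EPX, 0.886 with npsn and 0.886 with the first LECT2 gene. The ratios therefore describe the size of the changes in lyz, not a separate order of libraries. Ratios to EPX spanned 1.86-fold for srgn and 3.2-fold for CSF3R.

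The spread of lyz was large for a gene of its abundance. Its within-genotype SD of log2(CPM + 1) was 1.77, the highest among 550 tested genes whose average log2 CPM in edgeR was within 0.5 of its own. The median SD of those genes was 0.196. This average is close to the log2 of the mean level, so mutant replicate 2 raised it for lyz. For npsn the SD was 0.676, higher than or equal to 99.2% of 721 genes of like abundance. The first LECT2 gene had an SD of 0.419, at the 91.3rd percentile, and EPX an SD of 0.527, at the 97.9th. CPA1 ENSDARG00000021339 had an SD of 0.409, at the 95.6th percentile. In contrast, srgn (0.192, at the 62.6th percentile), CSF3R (0.155, at the 7.91st) and the second LECT2 gene (0.104, at the 0.988th) varied about as much as, or less than, other genes of their abundance. These are ranks, given without a test.

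**Figure D4:**
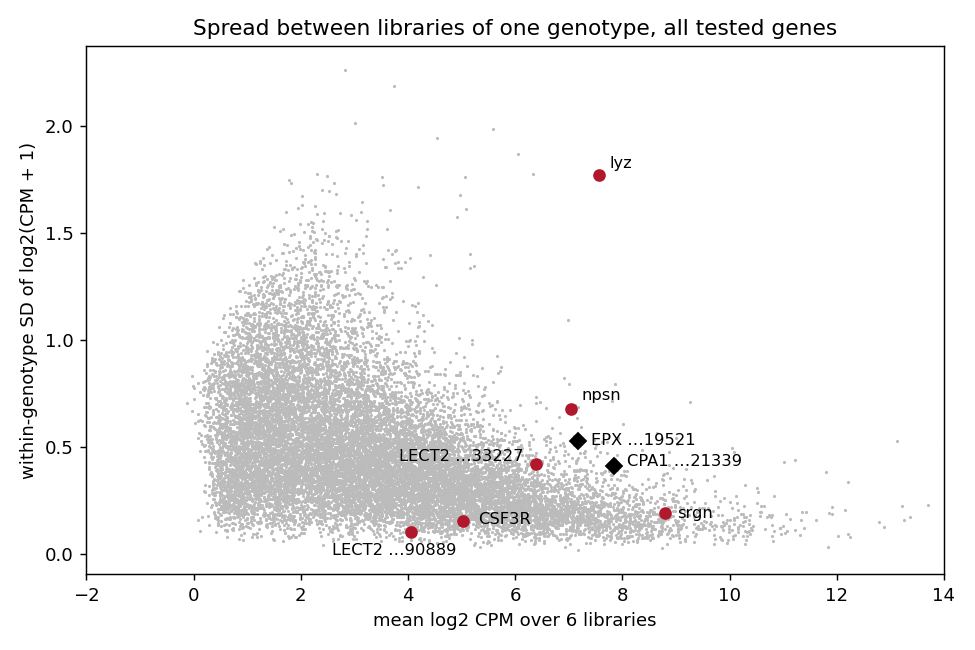
Within-genotype SD of log2(CPM + 1) (vertical axis) against edgeR's average log2 CPM over the 6 libraries (horizontal axis) for all 16499 tested genes (grey), with the matched members in red and EPX and CPA1 in black. lyz lies far above genes of like abundance at an SD of 1.77, npsn and EPX lie at the upper edge, and CSF3R and LECT2 (ENSDARG00000090889) lie near the lower edge.

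By the rule for likeness, the genes whose log2 CPM followed lyz most closely over the 6 libraries, among 7462 named genes of average log2 CPM 3 or more in edgeR, were isg15 (Pearson r = 0.990), tpm1 (0.982), ASH2L (0.981), ACOT7 (0.971) and EPX (0.965). These r values describe the same 6 libraries, which also differ in depth and content of other cells, and carry no test. isg15, an interferon-induced ubiquitin-like protein gene, measured 14.4, 33.9 and 8.32 CPM in mutant replicates 1, 2 and 3, against 11.2, 10.8 and 23.4 CPM in wild type replicates 1, 2 and 3. For the mean standardised profile of the 6 members, the closest genes were EPX (r = 0.980), EIF2S1 (0.978), ACOT7 (0.975), PPM1L (0.975) and tpm1 (0.974). EPX, ACOT7 and tpm1 were named by both profiles, which are not independent, since lyz is part of the mean profile.

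Other genes listed as neutrophil markers were not called. Of 18 tested IDs in that list, 0 were called by edgeR, 4 were higher and 2 lower at an unadjusted p under 0.05, and DESeq2 called 1, a gene named TIMP2, as lower. Over all tested genes, 14.2% passed this unadjusted threshold and 1.19% were called by edgeR, in either direction. DESeq2, run without the count filter, called 3.53% of 26817 genes, and its share among the 16499 tested genes is not given. The median log2 fold change of the list was 0.08, with 9 positive and 9 negative estimates. Several of its genes, such as MMP9 and g0s2, are also expressed by macrophages, so it does not measure neutrophils alone. The 4 with the lowest p were TIMP2 (ENSDARG00000075261), il6r, mmp13a and MMP9. TIMP2, an inhibitor of matrix metalloproteinases, measured 88.2 ± 13.1 CPM in the mutant and 192 ± 65.7 CPM in the wild type (log2 fold change -1.12, SE 0.24, adjusted p = 0.0716 in edgeR). The other ID named TIMP2, ENSDARG00000061226, measured 27.9 ± 5.47 CPM in the mutant and 28.5 ± 7.03 CPM in the wild type (adjusted p = 0.978 in edgeR). Which of these IDs is the listed timp2b is not given. il6r, the receptor gene for interleukin 6, measured 209 ± 25.7 CPM in the mutant and 151 ± 10.6 CPM in the wild type (log2 fold change 0.46, adjusted p = 0.196). The gelatinase gene MMP9 measured 1143, 868 and 719 CPM in mutant replicates 1, 2 and 3, against 722, 461 and 684 CPM in wild type replicates 1, 2 and 3, and the collagenase gene mmp13a measured 402, 291 and 177 CPM, against 188, 194 and 161 CPM (adjusted p = 0.296 and 0.295 in edgeR).

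A further 3 genes of the list, SMS, cxcr1 and cebp1, were named after their values were seen, and say nothing of the list as a whole. SMS, the spermine synthase gene, measured 52.1, 111 and 28.4 CPM in mutant replicates 1, 2 and 3, against 32.1, 31.9 and 45.2 CPM in wild type replicates 1, 2 and 3, with the same library highest and lowest as for lyz. The chemokine receptor gene cxcr1, a receptor for Cxcl8 on neutrophils, measured 41.2, 22.2 and 14.3 CPM in the mutant, against 26.9, 15.9 and 25.3 CPM in the wild type, with its peak in mutant replicate 1. The transcription factor gene cebp1, which in zebrafish is expressed in granulocytes, measured 104, 58.6 and 55.8 CPM in the mutant, against 81.8, 136 and 105 CPM in the wild type, with its peak in wild type replicate 2, where lyz was second lowest.

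Chemotaxis and migration receptors were likewise without a call (0 of 11 tested IDs in edgeR, 1 higher and 1 lower at an unadjusted p under 0.05, and the same number in DESeq2, median log2 fold change -0.19). Of all tested genes, edgeR called 1.19% and 14.2% had an unadjusted p under 0.05, in either direction. LTB4R, the leukotriene B4 receptor gene, measured 90.5, 86.0 and 83.2 CPM in mutant replicates 1, 2 and 3, against 126, 140 and 122 CPM in wild type replicates 1, 2 and 3 (log2 fold change -0.58, SE 0.15, adjusted p = 0.111 in edgeR's quasi-likelihood test). The formyl peptide receptor gene fpr1 measured 17.1, 9.46 and 12.3 CPM in the mutant, against 3.76, 4.32 and 5.89 CPM in the wild type (log2 fold change 1.48, SE 0.39, adjusted p = 0.118). LTB4R and fpr1 passed in DESeq2 only, which called 3.53% of the 26817 genes it was run on without the count filter. The genotypes did not overlap for LTB4R, fpr1 and CXCR4, against 20.6% of all tested genes. CXCR4 (ENSDARG00000041959), a retention receptor for leukocytes, measured 1393 ± 86.5 CPM in the mutant and 1178 ± 90.8 CPM in the wild type (adjusted p = 0.367), and the integrin gene itgb2 93.2 ± 23.3 CPM and 123 ± 20.7 CPM (adjusted p = 0.464).

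Of 26 tested genes of granulopoiesis and colony-stimulating factor signalling, 1 was called higher and 0 lower in edgeR. Over all tested genes, 0.309% were called higher and 0.885% lower. DESeq2 called 2 higher and 0 lower, against 3.53% of the 26817 genes it was run on without the count filter. The list had 13 positive and 13 negative estimates and a median log2 fold change of -0.09. The gene called in edgeR was SPI1, the myeloid transcription factor PU.1, which both macrophages and neutrophils express. It measured 560, 589 and 532 CPM in mutant replicates 1, 2 and 3, against 336, 356 and 392 CPM in wild type replicates 1, 2 and 3. This rise of 0.63 on the log2 scale (SE 0.12) passed narrowly, at an adjusted p of 0.0487 in edgeR. The ID named SPI1 was matched to spi1b without its paralog letter. The paralog spi1a, in the same list, overlapped between genotypes and was not called (log2 fold change 0.16, SE 0.15, adjusted p = 0.727 in edgeR). It measured 436, 442 and 328 CPM in mutant replicates 1, 2 and 3, against 349, 337 and 392 CPM in wild type replicates 1, 2 and 3. CEBPD, a factor of late granulocyte differentiation and inflammatory responses, measured 411, 304 and 269 CPM in the mutant, against 171, 123 and 208 CPM in the wild type (log2 fold change 0.97, SE 0.23, adjusted p = 0.0895), and passed in DESeq2. IRF8, which in zebrafish directs myeloid precursors to macrophages rather than neutrophils, measured 17.1, 28.8 and 21.6 CPM in the mutant, against 40.1, 41.5 and 36.9 CPM in the wild type (log2 fold change -0.81, SE 0.25, adjusted p = 0.173), and did not pass. The genotypes did not overlap for IRF8. In this list 2 IDs had no overlap with the mutant higher and 3 with it lower, against 10.2% and 10.4% of all tested genes. The shared cytokine receptor gene il6st measured 67.2 ± 15 CPM in the mutant and 107 ± 39.6 CPM in the wild type (adjusted p = 0.329).

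Of 20 tested IDs of genes that build or release secretory granules, with 0.23 as their median log2 fold change, 0 were called in edgeR, 6 were higher and 1 lower at an unadjusted p under 0.05, and 3 were higher in DESeq2. The share over all tested genes was 14.2% at this unadjusted p and 1.19% for edgeR calls, in either direction. DESeq2 called 3.53% of the 26817 genes it was run on without the count filter, in either direction. The 3 called in DESeq2 were STX11, snap23.1 and STXBP2, all parts or partners of the SNARE machinery that fuses granules with the plasma membrane. STX11 (ENSDARG00000044039) measured 320, 309 and 299 CPM in mutant replicates 1, 2 and 3, against 224, 159 and 223 CPM in wild type replicates 1, 2 and 3 (log2 fold change 0.62, SE 0.16, adjusted p = 0.12 in edgeR). snap23.1 measured 113 ± 29.1 CPM in the mutant and 63.9 ± 10.1 CPM in the wild type (adjusted p = 0.142), and STXBP2 92.7 ± 8.89 CPM and 64.1 ± 5.44 CPM (adjusted p = 0.186). CD63, a membrane protein of lysosomes and granules, measured 1403 ± 132 CPM in the mutant and 1097 ± 41.2 CPM in the wild type (adjusted p = 0.19). srgn, the cargo-packing member of this list, did not share their separation of the genotypes. Of the 20 tested IDs, 5 had no overlap with the mutant higher and 1 with it lower, against 10.2% and 10.4% of all tested genes.

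Markers of mast cells and eosinophils, which also carry granules, were examined because srgn and cpa5 are in that list too. Of these, cpa5 was not matched. The list summed to 408 to 560 CPM in the mutant and 422 to 513 CPM in the wild type, of which srgn itself held 461 and 425 CPM on average. Its 4 IDs of lowest p were GATA2, ALOX5, gata2b and srgn. The transcription factor gene GATA2 measured 6.01, 3.29 and 2.46 CPM in mutant replicates 1, 2 and 3, against 7.39, 6.05 and 16.3 CPM in wild type replicates 1, 2 and 3. The genotypes did not overlap for GATA2, which was the ID of the list at an unadjusted p under 0.05 and was not called (log2 fold change -1.33, SE 0.54, edgeR adjusted p = 0.312). Over all tested genes, 20.6% had no overlap and 14.2% had an unadjusted p under 0.05, in either direction. ALOX5 (ENSDARG00000057273), the 5-lipoxygenase gene of leukotriene synthesis, which also stands in the neutrophil list, measured 16.8 ± 1.67 CPM in the mutant and 21.5 ± 6.57 CPM in the wild type (edgeR adjusted p = 0.672). gata2b was at 0 to 3.21 CPM in the mutant and 0.173 to 1.44 CPM in the wild type. Named as defining markers and after their values were seen, the mast cell receptor gene KIT had 0 to 0.0945 CPM in the mutant and 0.173 to 3.03 CPM in the wild type, and HDC, the histamine-forming enzyme gene, 1.40 to 1.92 CPM and 1.87 to 2.25 CPM. KIT had too few counts to be tested, and its 3.03 CPM was in wild type replicate 1 alone. Its paralog kitb overlapped between genotypes, at 0.960 to 1.51 CPM in the mutant and 1.21 to 2.06 CPM in the wild type (edgeR adjusted p = 0.875). Of the 7 tested IDs of the list, 0 were called in edgeR or DESeq2. In either direction, edgeR called 1.19% of all tested genes, and DESeq2 3.53% of the 26817 genes it was run on. Erythroid markers, whose summed level was 218 to 411 CPM in the mutant and 185 to 250 CPM in the wild type, were highest in mutant replicate 1 and so did not follow lyz.

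**Figure D5:**
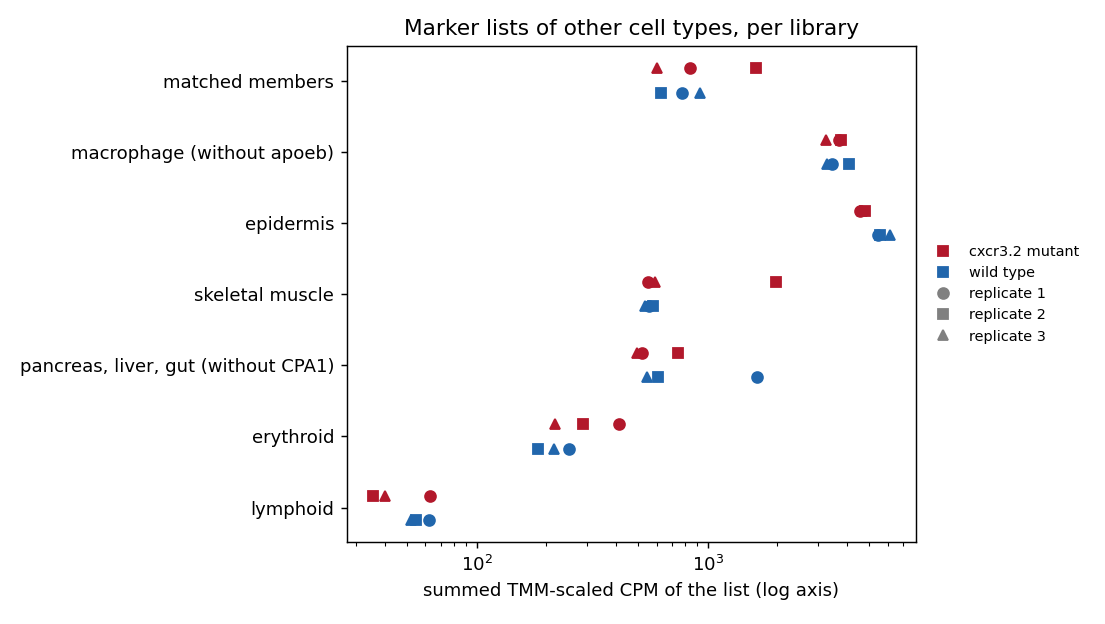
Summed TMM-scaled CPM (horizontal log axis) of the matched members and of marker lists of other cell types, for 3 cxcr3.2 mutant libraries (red, upper row of each pair) and 3 wild type libraries (blue, lower row). Mutant replicate 2 stands apart for the members (1609 CPM) and for skeletal muscle (1963 CPM), and wild type replicate 1 for pancreas, liver and gut (1634 CPM). The skeletal muscle sums include ALDOA (ENSDARG00000011665), at 399 to 466 CPM in every library.

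As a share of all counts, the 6 members held 0.0928%, 0.173% and 0.0664% in mutant replicates 1, 2 and 3, against 0.0753%, 0.0520% and 0.0852% in wild type replicates 1, 2 and 3. The exact 95% binomial intervals of the highest library, mutant replicate 2 (0.170% to 0.176%), and of the lowest, wild type replicate 2 (0.0505% to 0.0536%), lay far apart, but they cover counting error only. These shares are without TMM scaling. In TMM-scaled CPM the lowest library was mutant replicate 3, at 602 CPM, against 629 CPM in wild type replicate 2. Without srgn, which is made by other blood cells too, the remaining 5 IDs summed to 368, 1079 and 221 CPM in mutant replicates 1, 2 and 3, against 305, 238 and 503 CPM in wild type replicates 1, 2 and 3. Without lyz, the sums were 758, 941 and 571 CPM in the mutant, against 700, 578 and 690 CPM in the wild type. Mutant replicate 2 was still the highest library without lyz, and wild type replicate 3 was no longer the highest of its genotype.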

How the data were processed

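The authors deposited raw read counts per Ensembl gene, without normalization, for 6 libraries of sorted larval macrophages. Per the labels' protocols, cDNA was amplified with a low-input kit and single reads were aligned to GRCz10; Bowtie and TopHat are listed in the submitters' processing notes. How reads were counted, whether strand was used and the annotation release: not given in the sources used here. No molecular identifiers are named, so reads need not be independent molecules.

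The analysis used edgeR 4.0.16 under R 4.3.3, with filterByExpr (minimum count 10, minimum total 15), TMM scaling and the quasi-likelihood test (two-sided, no term but genotype), adjusted by Benjamini-Hochberg over 16499 genes. DESeq2 1.42.0 was an alternative, run without the count filter on 26817 genes. The common biological coefficient of variation was 0.441. SEs were calculated back from the quasi-likelihood F test, as the absolute log2 fold change over the square root of F. No separate Wald error was computed, and the intervals rest on these SEs. Replicates of one genotype were not duplicates: their chi-square per gene, 18.5 at least, was above sampling noise. Of 31962 IDs, 26121 had a symbol; symbols were matched exactly, then in upper case, then without a paralog suffix, and those with more than 3 IDs were dropped. No genome positions or sequences are given, since no position table of the files' build was used here.

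The members and all gene lists were chosen with earlier results of these data known. Named genes are all members, up to 4 genes of lowest p per described list, called genes of the neutrophil lists, the 5 genes most like lyz or the members' mean profile, and those said to be named otherwise. The rule also asked for genes most like mpx, which was not matched. Groups and replicate numbers come from the sample titles.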

Additional observations from a re-analysis of the deposited data

How the results depend on the processing

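Under all 13 alternatives (scaling, count filter, test, replicate block and each library left out), 0 members were called in either direction. Estimates of npsn, srgn and LECT2 ENSDARG00000033227 stayed positive throughout. Signs turned for values near 0: CSF3R was 0.045 under library totals, LECT2 ENSDARG00000090889 was -0.020 and CPA1 ENSDARG00000021339 was -0.0065 under the stricter count filter (CPM over 10 in 3 libraries), and epx was 0.0041 with DESeq2 size factors, 0.24 under library totals, 0.015 without a filter and 0.012 in DESeq2. With 1 library left out, the log2 fold changes ranged from -1.05 to 2.09 for lyz (adjusted p 0.458 to 0.898), -0.14 to 0.53 for EPX, -0.015 to 0.11 for LECT2 ENSDARG00000090889, -0.13 to 0.36 for CPA1 ENSDARG00000021339 and -0.31 to 0.40 for epx. The lyz estimate was 0.29 with the replicate number as a block. Removing heat shock genes before scaling left lyz at 1.14. The log2 ratio of the members' sum ranged from -0.10 to 0.67 with 1 library left out, and was 0.67 without srgn, 1.14 for lyz alone (in place of mpx and lyz), 0.21 without lyz and 0.31 with EPX and CPA1; the last 2 sums were chosen after seeing the data.

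Over all genes, 51 were higher and 146 lower. Library totals gave 217 higher, the stricter filter 168 and 330, the replicate block 13 and 84, DESeq2 437 and 509, and leaving out 1 library 3 to 11 higher and 43 to 98 lower; the cause of these differences was not tested. Same-numbered libraries did not deviate together (r from -0.028 to 0.0025). With 3 libraries a genotype this cannot exclude that same-numbered pools were handled together, and the labels name no pairing. With 3 libraries a genotype, the 95% interval of lyz spans folds from 0.465 to 10.5 at 334 or more counts per library; LECT2 ENSDARG00000090889, at 105 to 175 counts, and epx, at 10 to 29, rest on fewer reads.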

Other observations

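Exocrine pancreas genes were highest in wild type replicate 1, a library in which lyz, npsn and srgn were neither highest nor lowest. The carboxypeptidase gene CPB1 measured 48.8, 59.9 and 56.5 CPM in mutant replicates 1, 2 and 3, against 368, 108 and 81.1 CPM in wild type replicates 1, 2 and 3. The trypsin gene prss1 measured 146, 160 and 131 CPM in the mutant, against 559, 192 and 151 CPM in the wild type. In wild type replicate 1 CPA1 ENSDARG00000030915 was 2.61 times its lowest wild type level, and CPA1 ENSDARG00000021339 1.87 times. Neither CPB1 nor prss1 was called (adjusted p = 0.152 and 0.317 in edgeR's quasi-likelihood test). The lipase gene CEL (ENSDARG00000017490) measured 8.42, 11.1 and 25.2 CPM in mutant replicates 1, 2 and 3, against 117, 33.6 and 23.9 CPM in wild type replicates 1, 2 and 3 (adjusted p = 0.2 in edgeR). Of the 17 tested IDs of the pancreas, liver and gut list, the transferrin gene tfa was called higher in the mutant, at 83.4 ± 15 CPM in the mutant and 38.0 ± 4.18 CPM in the wild type (log2 fold change 1.14, SE 0.20, adjusted p = 0.0349). At an unadjusted p under 0.05, 1 ID of this list was higher and 4 were lower, against 14.2% of all tested genes. DESeq2 called tfa higher and 1 CEL gene lower, against 3.53% of the 26817 genes it was run on without the count filter. For CPB1 and tfa the genotypes did not overlap. In this list 1 ID had no overlap with the mutant higher and 1 with it lower, against 10.2% and 10.4% of all tested genes. By edgeR, 0.309% of all tested genes were called higher and 0.885% lower.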
